A study of Mus musculus with 6 samples.

Results

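Class 6 semaphorins and A plexins are 8 genes, Sema6a to Sema6d and Plxna1 to Plxna4, taken by symbol through the annotation of GRCm38 from a table of 53421 genes counted by RNA-seq in cultured cerebellar granule cells (GCs). All 8 passed the filter on low counts, among 17214 genes that were tested. The cells came from C57BL/6 pups, wild type by the methods and at postnatal day 8 by the labels, and were grown in Neurobasal-A medium with B27. All cultures received a lentivirus and then puromycin, and the virus expressed either a control hairpin, called shCtrl, or one that targets Ythdf2, called shYthdf2, with 3 libraries each. YTHDF2 is a cytoplasmic protein that binds N6-methyladenosine (m6A) in mRNA and directs the bound mRNA to decay, and the comparison asks which mRNAs differ in level once it is reduced. The knockdown (KD) rests on libraries whose names carry 1 hairpin number, 3. Puromycin keeps any infected cell type of the culture in the sample, and a change in the share of a cell type and a change in RNA per cell cannot be told apart. The libraries are numbered 1, 2 and 4 in their names.

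Semaphorins are guidance proteins, and plexins are their receptors. The class 6 semaphorins span the membrane and act as ligands for A plexins on neighbouring cells, and they can also signal back into the cell that carries them. Sema6A and Plexin-A2 are known for guiding the radial migration of GCs from the external to the inner granule layer of the cerebellum. Mice without either protein leave GCs stranded on the way. Plexin-A1 and Plexin-A4 are best known as partners of neuropilins in the response to secreted class 3 semaphorins. The plexin tail holds a GTPase-activating domain that acts on Rap proteins.

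The titles and genotype fields contradict the names of the libraries (KD2_3 and KDC) as to which libraries are the KD. The names were followed here, and each direction below would be inverted if the titles and genotype fields were right. Ythdf2 itself had 501, 403 and 501 normalized counts under shYthdf2 (replicates 1, 2 and 4) and 619, 841 and 629 under shCtrl, where normalized counts are counts scaled to a common library size. It was thus lower in every library named for the KD, at 67.3% of the shCtrl mean (log2 fold change -0.57, standard error 0.16, adjusted p = 0.125 in edgeR's quasi-likelihood test). The libraries held 17246821 to 21546595 counts. The replicate 2 libraries of both groups lay below the other libraries of their group on the second principal component (31.7% of the variance), and on the first (44.1%) shCtrl replicate 2 lay among the KD libraries. The 12 granule cell markers summed to 151536 to 161858 normalized counts in each library, with Zic1, Neurod1 and Pax6 at means of 63605, 17041 and 10841, so the labelled cell type was present. Single markers of this list varied more than the sum. Gabra6 had 1358 and 1210 in the replicate 2 libraries and 408 to 552 in the others. Chn2 had 3747, 4761 and 3756 under shYthdf2 (replicates 1, 2 and 4) and 1465, 3328 and 1494 under shCtrl. Barhl1 and Neurod1 lay the other way, with every KD library below every control library. Barhl1 had 6641, 6616 and 6783 under shYthdf2 and 11283, 8643 and 10643 under shCtrl. For Neurod1 these were 15201, 15492 and 14855 and 19280, 18608 and 18810. At the 0.05 threshold, edgeR called 1 of the 12 markers higher and 2 lower before adjustment, and 0 after it. Markers of other cell types were present too. The 8 oligodendrocyte lineage markers summed to 12931, 16959 and 13296 under shYthdf2 (replicates 1, 2 and 4) and to 5020, 16698 and 4789 under shCtrl. The 8 vascular and fibroblast markers summed to 7654 and 6465 in the replicate 2 libraries and to 2271 to 2984 in the other 4. In the oligodendrocyte list, 0 of 8 markers were without counts and 1 of 8 had an unadjusted p under 0.05. The 7 markers of astrocytes and Bergmann glia summed to 8980 to 9583 under shYthdf2 and to 4846, 10787 and 4924 under shCtrl, so shCtrl replicate 2 did not lie with the other controls for either glial list. The sums did not overlap between the groups for 2 lists and overlapped for all other lists. Among single genes, the groups did not overlap for 26.0% of all genes tested. The 6 GABAergic interneuron markers summed to 7641, 9245 and 7608 under shYthdf2 and to 6462, 7003 and 6372 under shCtrl, and the 6 markers of proliferating progenitors to 173, 197 and 174 and to 97.6, 157 and 94.5. The sums of these 2 lists separated the groups as Sema6d, Nrcam and the other genes without overlap did. The part of these cells in those results was not tested.

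The sequences shown are places where these mRNAs hold GGACT, the core letters of the commonest m6A site, and they are given because YTHDF2 reads that mark. Whether any of them carries m6A was not measured. The longest coding transcript of each member held 5 to 18 copies on its sense strand. Per kilobase this was 0.720 in Plxna3 to 1.99 in Sema6c, with a median of 1.23, beside a median of 1.05 (quartiles 0.656 and 1.52) over 13719 tested genes with a coding transcript, 93.1% of which held at least 1 copy. 1 copy sat in the same place in all 4 A plexins, near the end of the coding sequence, in exon 30 of 32 for Plxna1 (chr6:89320954-89320958, minus strand), Plxna2 (chr1:194810173-194810177, plus strand) and Plxna4 (chr6:32157929-32157933, minus strand) and in exon 31 of 33 for Plxna3 (chrX:74341647-74341651, plus strand). The windows are transcript sequence from GENCODE on GRCm38, 5′ to 3′, with GGACT in capitals and 10 bases on each side.
Plxna1: agaccttcatGGACTcctgctctac
Plxna2: agacctttatGGACTcctgttccac
Plxna3: agaccttcatGGACTcctgttctac
Plxna4: agaccttcatGGACTcctgctccac
Of the 25 bases, 24 were identical between Plxna1 and Plxna3 and between Plxna1 and Plxna4, and 22 between Plxna1 and Plxna2, the least alike of the 6 pairs. Among the semaphorins, 1 pair of windows had at least 20 identical bases. It joined Sema6b (exon 10 of 17, coding, chr17:56128390-56128394, minus strand) and Sema6d (exon 10 of 18, coding, chr2:124657717-124657721, plus strand), with 22 of 25 bases identical.
Sema6b: gagaagcagtGGACTtccttcctga
Sema6d: gagaaacactGGACTtccttcctta
All 5 copies in Sema6b were in the coding sequence, while the 8 copies in Sema6d were 6 in the coding sequence, 1 in the 5′ UTR and 1 in the 3′ UTR.

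After YTHDF2 KD, 0 of the 8 members had an adjusted p-value under 0.05 in edgeR's test, beside 0.604% of all genes tested (0.244% higher and 0.360% lower). An unadjusted p under 0.05 was reached by 2 members, Sema6d and Sema6b, which is 25% of the 8, beside 20.1% of all genes. Sema6d was higher, as were 9.50% of all genes at that threshold, and Sema6b was lower, as were 10.6%. The groups did not overlap for the same 2 members, beside 26.0% of all genes tested (12.6% higher and 13.4% lower). DESeq2 called 1 member, Sema6d, beside 7.67% of all genes, edgeR without the filter called the same member, beside 1.98%, and limma-voom called 0. The median log2 fold change of the 8 was -0.00, beside 0.01 over all genes, with 4 members above 0 and 4 below. With 8 genes, 1 call more or less moves such a share by much, so nothing is read from it about the family.

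**Figure D1:**
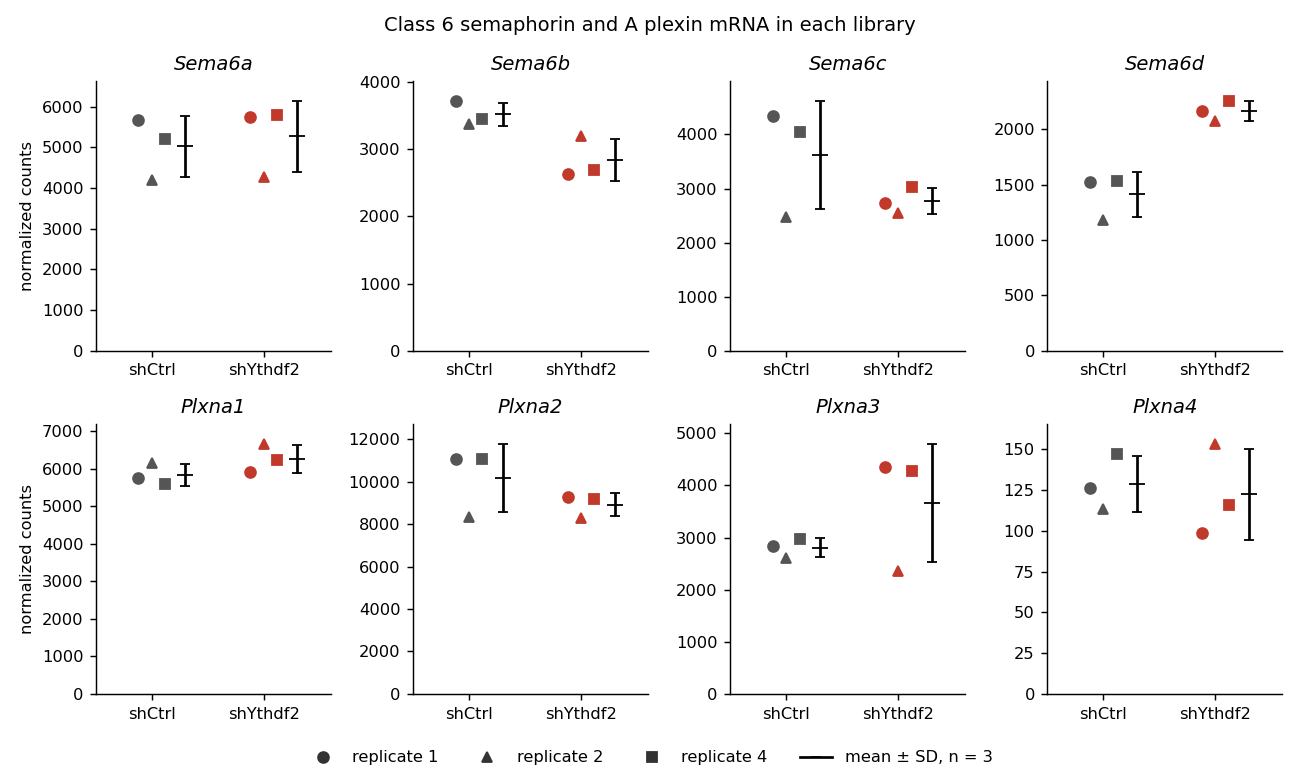
Normalized counts (vertical axes, from 0) of each class 6 semaphorin and A plexin in the 3 shCtrl and 3 shYthdf2 libraries, with symbols for the replicate number and the mean ± SD beside the points. The groups are separate for Sema6b and Sema6d and overlap in the other 6 panels. The replicate 2 triangles lie lowest in both groups for Sema6a, Sema6c, Sema6d, Plxna2 and Plxna3.

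Among the ligands, Sema6d (ENSMUSG00000027200, chr2:124089969-124667770) differed most. Sema6D is a transmembrane semaphorin known for binding Plexin-A1 in heart and spinal cord development. It had 2166, 2078 and 2257 normalized counts under shYthdf2 (replicates 1, 2 and 4) and 1528, 1177 and 1537 under shCtrl. Every KD library was above every control library. The group means were 2167 ± 89.4 and 1414 ± 205 (SD, n = 3 each), and the KD mean was 153% of the control mean (p = 0.1 by a two-sided exact permutation test, which cannot go lower with 3 libraries a group). In log2 terms this was 0.62 (standard error 0.12, 95% confidence interval 0.32 to 0.91), with an unadjusted p of 0.00143 and an adjusted p = 0.0673 in edgeR's test, just outside the threshold. With the replicate number as a block, it was inside (adjusted p = 0.0496, where 1.35% of all genes were called). Over the 14 alternatives the adjusted p ranged from 0.00261 with DESeq2 to 0.303, and 5 of them put Sema6d past the threshold. The difference between libraries of the same number was 0.50, 0.82 and 0.55 on the log2 scale for replicates 1, 2 and 4, so it was largest in replicate 2. The GABAergic interneuron and progenitor sums were higher in every KD library, as Sema6d was, though single markers such as Slc6a5 and Top2a did not separate the groups. The part of any of these cells in the Sema6d result was not tested. The 2 long noncoding RNAs on the other strand of the Sema6d locus never exceeded 2 counts, while Sema6d had 1214 or more in each library.

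Sema6b (ENSMUSG00000001227, chr17:56123085-56140343) lay the other way. Sema6B is a ligand of Plexin-A2 and Plexin-A4 that repels hippocampal mossy fibres. Normalized counts of 2637, 3194 and 2684 were found under shYthdf2 and 3718, 3382 and 3454 under shCtrl. The groups did not overlap, but the distance between the nearest libraries was small, and both of these were replicate 2. On average there were 2838 ± 309 and 3518 ± 177 (SD, n = 3 each), or 80.7% of the control (exact permutation p = 0.1). Its log2 fold change was -0.31 (standard error 0.11, 95% confidence interval -0.56 to -0.06, unadjusted p = 0.0227, adjusted p = 0.173 in edgeR's test), and it stayed between -0.40 and -0.26 with any library left out.

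Sema6c (ENSMUSG00000038777, chr3:95160457-95174024), the least studied ligand of the class, had 2736, 2546 and 3026 normalized counts under shYthdf2 and 4335, 2471 and 4044 under shCtrl. The control libraries of replicates 1 and 4 were thus far above all KD libraries, and shCtrl replicate 2 was below all of them. On average the log2 fold change was -0.39 (standard error 0.21, 95% confidence interval -0.87 to 0.10, adjusted p = 0.342 in edgeR's test). This value turned on 1 library. Without shCtrl replicate 2 it was -0.60 (adjusted p = 0.00988, where 18.3% of all genes were called), and between the replicate 2 libraries the difference was 0.04. The 2 libraries with the most Sema6c were those with the least oligodendrocyte marker RNA, at 5020 and 4789. They were also lowest for the sums of astrocyte and Bergmann glia (4846 and 4924) and microglia markers (115 and 98.9). The same held for GABAergic interneuron (6462 and 6372) and progenitor markers (97.6 and 94.5). It also held for unipolar brush cell (10145 and 10249) and vascular and fibroblast markers (2302 and 2271). By a small distance, it held for the granule cell markers themselves (155271 and 151536). The Purkinje cell and ependymal sums were not lowest there. The part of any of these cells in the Sema6c result was not tested.

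Sema6a (ENSMUSG00000019647, chromosome 18), the ligand that GCs need to start radial migration, had 5747, 4264 and 5796 normalized counts under shYthdf2 and 5666, 4192 and 5214 under shCtrl. The groups lay over each other. Both replicate 2 libraries were below all other libraries, as they also were for Sema6c, Plxna2 and Plxna3. The differences of Sema6a were 0.02, 0.02 and 0.15 on the log2 scale within replicates 1, 2 and 4. The fitted log2 fold change was 0.07 with a standard error of 0.16 (adjusted p = 0.848 in edgeR's test), and its 95% confidence interval, -0.31 to 0.45, does not reach the value fitted for Sema6d. The same 2 libraries held the highest vascular and fibroblast sums, 7654 and 6465. Of the granule cell markers, they held the most Gabra6 (1358 and 1210) and the least Pax6 (8805 and 9686). The part of any of these in the Sema6a level was not tested.

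**Figure D2:**
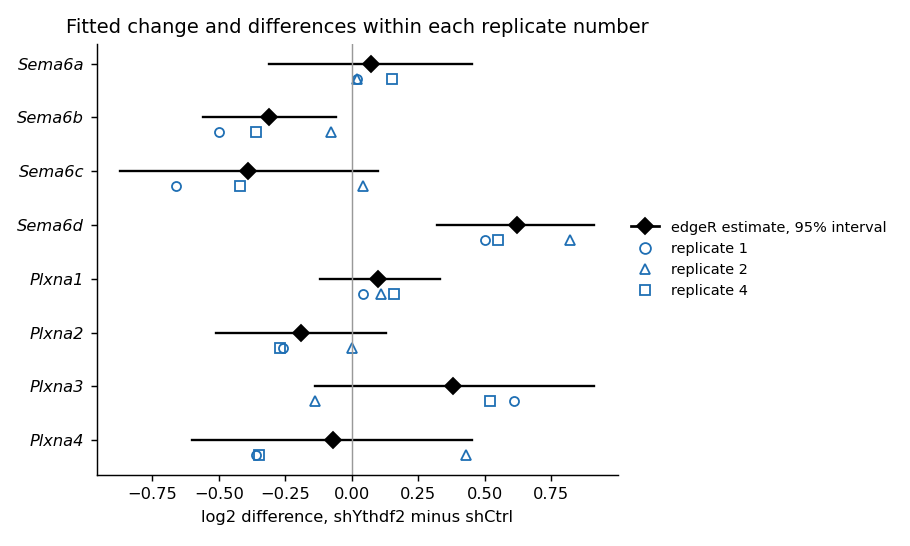
Log2 difference between shYthdf2 and shCtrl (horizontal axis) for each member, as the edgeR estimate with its 95% confidence interval (diamonds and lines) and as the difference between the libraries of each replicate number (open symbols). The interval lies above 0 for Sema6d (0.32 to 0.91), below 0 for Sema6b (-0.56 to -0.06) and across 0 for the other 6, and the replicate 2 difference of Plxna3 (-0.14) is opposite in sign to those of replicates 1 and 4 (0.61 and 0.52).

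Among the receptors, Plxna2 (ENSMUSG00000026640, chr1:194618218-194816869), the receptor for Sema6A in migrating GCs, had the most counts of the 8 genes. There were 9279, 8310 and 9173 normalized counts under shYthdf2 and 11092, 8317 and 11094 under shCtrl. The groups overlapped, because shCtrl replicate 2 lay with the KD libraries as it did for Sema6c. The log2 fold change was -0.19 (standard error 0.14, 95% confidence interval -0.51 to 0.13, adjusted p = 0.485). Without shCtrl replicate 2 it was -0.31 (adjusted p = 0.0412 in edgeR's test, where 18.3% of all genes were called). The differences within replicates 1, 2 and 4 were -0.26, -0.00 and -0.27. For Plxna2 too, the 2 highest libraries were the 2 with the lowest sums of oligodendrocyte markers. They were lowest as well for the other lists named as lowest for Sema6c, granule cell markers included. The part of any of these cells was not tested.

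Plxna3 (ENSMUSG00000031398, chrX:74329066-74344689), known with Plxna4 for the pruning of axons and the guidance of sympathetic and motor neurons, had 4352, 2354 and 4275 normalized counts under shYthdf2 and 2848, 2602 and 2974 under shCtrl. The KD libraries of replicates 1 and 4 were above all controls, and that of replicate 2 was below all of them, which gave the KD group an SD of 1132 around a mean of 3660, against 189 around 2808. This gave a log2 fold change of 0.38 (standard error 0.23, 95% confidence interval -0.14 to 0.91, adjusted p = 0.387). Without shYthdf2 replicate 2 it was 0.62 (adjusted p = 0.0310, where 4.70% of all genes were called).

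Plxna1 (ENSMUSG00000030084, chr6:89316314-89362620), the receptor that has been tied to Sema6D, varied little. It had 5916, 6656 and 6238 normalized counts under shYthdf2 and 5767, 6151 and 5598 under shCtrl, with the groups overlapping. The log2 fold change of 0.10, with a standard error of 0.10 and an adjusted p of 0.591 in edgeR's test, had the narrowest interval of the members, -0.12 to 0.33, so a change of the size fitted for Sema6d lies outside it. The antisense gene Gm26811 never exceeded 84 counts, while Plxna1 had 5092 or more in each library.

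Plxna4 (ENSMUSG00000029765, chr6:32144268-32588192), a receptor of sensory and sympathetic axons, was scarce, with 94 to 158 counts in a library before normalization. After it, the shYthdf2 libraries had 98.4, 153 and 116 and the shCtrl libraries 126, 113 and 147. Replicates 1 and 4 were lower in the KD and replicate 2 was higher. Together they gave a log2 fold change of -0.07 (standard error 0.23, 95% confidence interval -0.60 to 0.45, adjusted p = 0.887).

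To compare the members with each other, normalized counts were divided by the length of the merged exons of each gene in kilobases and by the library size in units of 1000000 counts. Under shCtrl, this level per length was highest for Sema6b, at 46.7 ± 2.34 (SD, n = 3). Plxna1 (34.0 ± 1.65), Sema6c (32.1 ± 8.90), Plxna2 (31.2 ± 4.92) and Sema6a (30.2 ± 4.53) followed, and neighbours among these 4 overlapped between libraries. Plxna3 came next at 18.8 ± 1.26, then Sema6d at 7.05 ± 1.02 and Plxna4 at 0.482 ± 0.0640, each separate from its neighbours. The member with the largest fitted change, Sema6d, was therefore the least abundant ligand of the class in these cultures. The order depends on the length used, since with the longest transcript in place of merged exons the mean over all 6 libraries was 45.5 for Plxna2 in place of 29.3, level with Sema6b at 44.8.

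**Figure D3:**
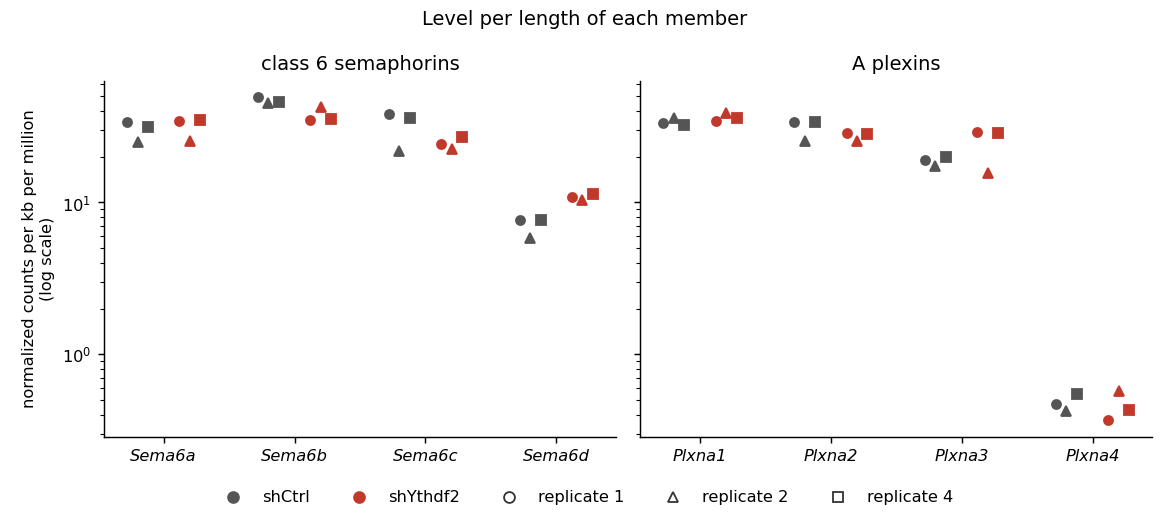
Normalized counts per kilobase of merged exons and 1000000 counts (vertical axis, log scale) for the 4 ligands and the 4 receptors, with 1 point for each of the 3 shCtrl and 3 shYthdf2 libraries and symbols for the replicate number. Plxna4 lies near 0.5, Sema6d between 5.87 in its lowest control library and 11.3 in its highest KD library, and the other 6 members at 15.7 or above.

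Summed over the class, the ligands held 105 ± 4 under shYthdf2 and 116 ± 16.1 under shCtrl on this scale of level per length, and the A plexins 88.8 ± 7.21 and 84.4 ± 4.59 (SD, n = 3 each). Both sums overlapped between the groups. Within the ligand sum, Sema6d made up 10.3% to 10.4% in the KD libraries and 5.89% to 6.35% in the control libraries. The share of Sema6a was 25.3% to 33.0% and 25.7% to 26.3%, and that of Plxna3 among the receptors was 19.5% to 31.5% and 21.9% to 22.8%. Among the receptors, Plxna2 made up 30.1% to 31.7% and 32.2% to 39.1%. The groups were apart for the shares of Sema6d and, by a small distance, Plxna2, and they overlapped for the other 6 members, Sema6b included (32.8% to 42.0% and 38.0% to 45.9%).

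**Figure D4:**
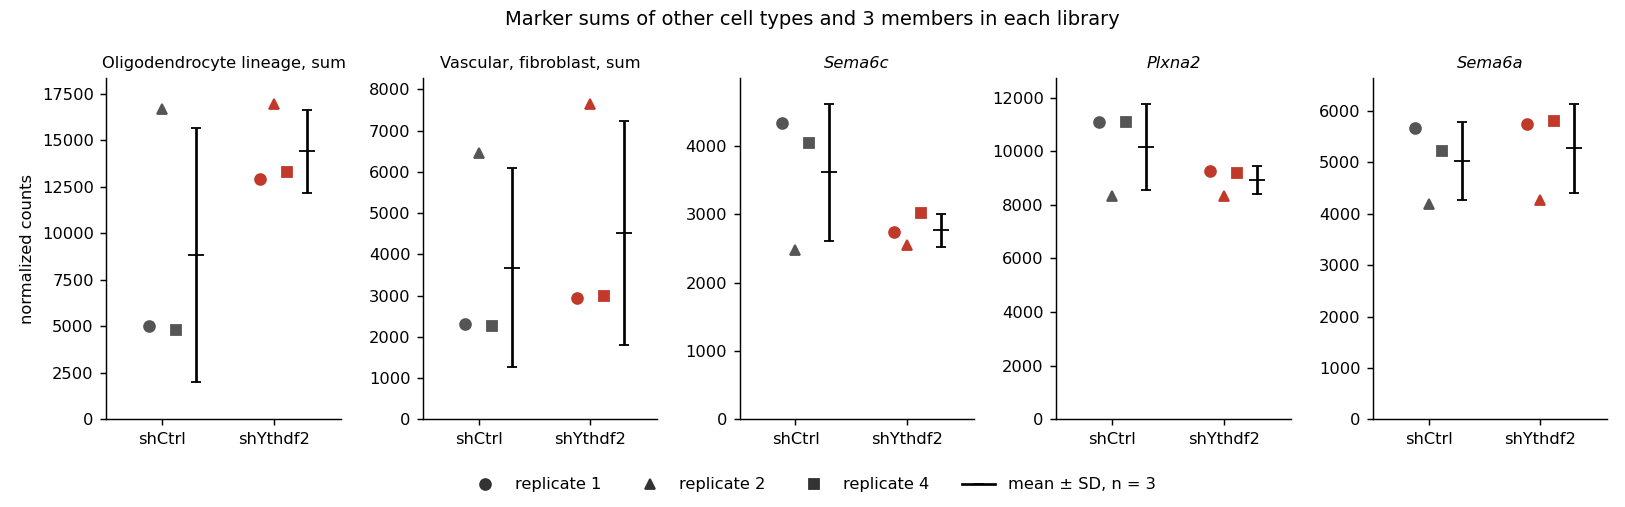
Normalized counts (vertical axes, from 0) summed over 8 oligodendrocyte lineage markers and over 8 vascular and fibroblast markers, and those of Sema6c, Plxna2 and Sema6a, in each library, with the mean ± SD beside the points. The 2 libraries with the lowest oligodendrocyte sums (4789 and 5020) are the 2 highest for Sema6c and Plxna2. The 2 replicate 2 libraries, with the highest vascular sums, are the 2 lowest for Sema6a, and for Sema6c and Plxna2 too. Markers that are not drawn here also set these libraries apart.

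The genes whose levels ran most like those of Sema6d over the 6 libraries, among 12557 genes with a mean of at least 50 normalized counts, were Aim2, Galnt7 and Kbtbd3. Likeness was measured by the root mean square difference of log2 normalized counts after centring each gene, which was 0.067, 0.073 and 0.087. Galnt7, an enzyme that adds sugars to glycoproteins, had 993, 1011 and 948 normalized counts under shYthdf2 and 675, 547 and 654 under shCtrl. Like Sema6d, it was lowest in shCtrl replicate 2.

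The other genes of the pathway were taken as a list of 44, made of 9 further ligands of A plexins, 9 co-receptors and 26 intracellular effectors. Of these, 43 were tested and Trem2 was not. An adjusted p under 0.05 was reached by 1 of the 43, Abl1, beside 0.604% of all genes, and by 5 with the replicate block (Abl1, Mical2, Mras, Nrp1 and Sema3a), beside 1.35%. With an unadjusted p under 0.05, 9 genes lay above and 5 below the controls (32.6% of 43, beside 20.1% of all genes), and the groups did not overlap for 15 (34.9%, beside 26.0%). By role, the unadjusted threshold was passed by 4 of 9 ligands (44.4%), 6 of 8 co-receptors (75%) and 4 of 26 effectors (15.4%). The median log2 fold change of the list was 0.02.

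Abl1, a tyrosine kinase that Sema6D can engage inside the cell that carries it, fell. It had 1924, 1914 and 1887 normalized counts under shYthdf2 and 3200, 2711 and 3041 under shCtrl, with every KD library below every control. Its log2 fold change of -0.64 had a standard error of 0.10 (adjusted p = 0.0496 in edgeR's test). The call was lost with library size alone as the scale (adjusted p = 0.0540), with limma-voom (0.0545) and without replicate 1 or 4 of either group (0.241 to 0.286), while the fold change stayed between -0.71 and -0.60 over all alternatives. Of the other effectors with an unadjusted p under 0.05, Mical2, an enzyme that oxidizes actin, had a log2 fold change of 1.32, Rap1a, a substrate of the plexin GTPase-activating domain, of 0.34, and Mras, another Ras family GTPase, of -0.56, with adjusted p-values of 0.0554, 0.137 and 0.0718.

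Among the co-receptors, Nrp1 and Nrp2, the neuropilins that bind class 3 semaphorins for A plexins, had log2 fold changes of 1.11 and 0.55 (adjusted p = 0.0815 and 0.208). Nrcam, an adhesion molecule that joins neuropilin complexes, had 9834, 9483 and 9822 normalized counts under shYthdf2 and 5927, 7369 and 5852 under shCtrl, a log2 fold change of 0.61 (adjusted p = 0.0621). The groups did not overlap. Nrcam was past the adjusted threshold under 4 of the 14 alternatives and Nrp1 under 5. Kdr, a receptor for vascular endothelial growth factor that is abundant in vessels, had a log2 fold change of 0.82 from a mean of 61.2 counts, while Ptk7 and Cntn2, the latter a marker of young parallel fibers, had -0.46 and -0.48, with adjusted p-values of 0.119, 0.145 and 0.158.

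Among the further ligands, Sema3a, a secreted repellent, had 384, 418 and 368 normalized counts under shYthdf2 and 170, 236 and 188 under shCtrl, a log2 fold change of 0.98 (adjusted p = 0.0527 by edgeR, and 0.0450 once the replicate number was a block). Sema3d and Sema5b had 0.73 and 0.78, but their differences between the replicate 2 libraries were -0.02 and -0.13, and the groups overlapped. Sema3c lay below the controls in each library at a low level, with a log2 fold change of -1.12 from a mean of 53.9 normalized counts (adjusted p = 0.143).

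**Figure D5:**
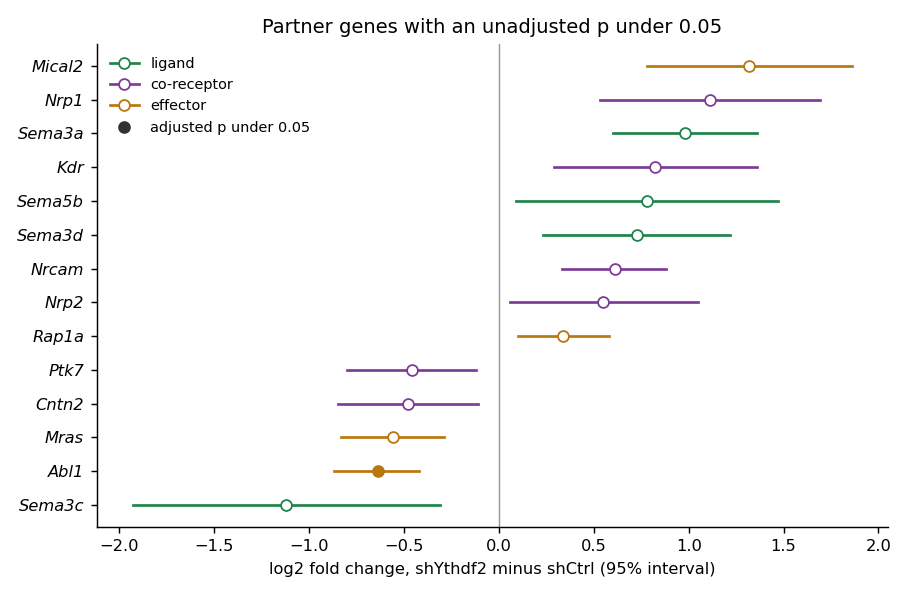
Log2 fold change between shYthdf2 and shCtrl with its 95% confidence interval (horizontal axis) for the 14 partner genes with an unadjusted p under 0.05, coloured by role, with a filled point where the adjusted p is under 0.05. Mical2 (1.32) is the highest, Sema3c (-1.12) the lowest, and Abl1 (-0.64) holds the only filled point.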

How the data were processed

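By the paper's methods, the authors filtered the reads, aligned them (HISAT, TopHat2) to GRCm38 and used HTSeq to count reads per gene. What they deposited are raw integer counts. The submitters' processing notes name mm9 and Bowtie 0.12.2 in their place, and the kit is given differently by the labels and the methods, neither of which states whether strand was kept. Gene IDs were matched to GENCODE M21 (GRCm38), and 52489 of 53421 had a symbol (785 of the others are loci the authors added).

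The main test was edgeR 4.0.16 under R 4.3.3 (filterByExpr with a minimum count of 10 and minimum total of 15, TMM, quasi-likelihood test with Benjamini-Hochberg adjustment over 17214 genes). The counts kept were 99.8% of all. Depth limits the precision of scarce genes such as Plxna4. Standard errors were taken from the fold change and its F statistic. A two-sided exact permutation test for single genes used log2(normalized count + 0.5). GGACT was counted in the longest coding transcript of each gene. DESeq2 1.42.0, limma-voom (limma 3.58.1), other scalings and filters, the replicate block, a separate term for replicate 2 and each library left out were the alternatives. Python 3.11.15, pandas 2.3.3 and matplotlib 3.10.9 were used for the rest. The tests were checked on simulated data. Protein sequences were not used here.

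Deviations from the group means correlated between libraries of the same number (0.252, 0.360 and 0.322 for 1, 2 and 4). Libraries of different numbers were not compared in this way, so whether the numbers pair the libraries was not tested. The methods call the replicates biological, and nothing used here says which cultures they came from, so p-values measure the spread between these libraries. The 8 members, the partner list and the marker lists were chosen with earlier results of these data known. Genes named were the members, Ythdf2, partner genes with an unadjusted p under 0.05, and the 3 genes most like the member with the smallest p. Trem2 and the markers given by name were added after their values were seen.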

Additional observations from a re-analysis of the deposited data

How the results depend on the processing

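The number of members past the adjusted threshold, 0 in edgeR's test, was 1 with DESeq2, without the filter and with the replicate block, each time Sema6d, and 2 with a separate term for replicate 2, which added Sema6b and called 22.1% of all genes. With a library left out it was 0 to 3, with 3 (Sema6c, Sema6d and Plxna2) without shCtrl replicate 2 and 1 (Plxna3) without shYthdf2 replicate 2. The number at an unadjusted p under 0.05, 2, became 4 with the separate term and 1 to 4 with a library left out. For the partner list, the adjusted count of 1 became 8 with DESeq2, 0 with limma-voom, 6 without the filter, 2 with at least 10 counts in every library, 5 with the replicate block, 13 with the separate term and 0 to 15 with a library left out, the last without shCtrl replicate 2. Over all genes the calls were 0.604% in the main test, 7.67% with DESeq2, 1.98% without the filter, 1.35% with the block, 22.1% with the separate term and 18.3% without shCtrl replicate 2. The cause of these moves was not tested. The sign changed for Sema6a (-0.05 to 0.20 with a library left out) and Plxna4 (-0.27 to 0.06), and for no other member under any alternative. Ythdf2 stayed between -0.66 and -0.41 with a library left out. With the longest transcript as the length, the level was 39.5 for Sema6a in place of 30.9, 14.6 for Sema6d in place of 8.93 and 45.5 for Plxna2 in place of 29.3. The replicate block changed the call of Sema6d and of no other member. With 3 libraries in a group, the intervals of Sema6c, Plxna3 and Plxna4 are wide, and Plxna4, with 94 to 158 counts in a library, is also limited by depth.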
